A study of Mus musculus with 8 samples.

Results

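The genes described here are 44 genes of mouse chromosome 8, read in embryonic stem cell lines that carry the K122A substitution (lysine to alanine) in the histone variant H3.3. They were listed by position, because genes of this chromosome were lower than in wildtype in every mutant group. The comparisons with wildtype therefore chose the list, and their values for its members are a description and support nothing. Of the 44 genes, 42 had a row in at least 1 of the 4 deposited tables and 40 in all 4, out of 873 measured genes of chromosome 8 and 16896 measured genes in all.

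All libraries came from E14 cells (ES-E14TG2a), an established male mouse line of embryonic stem cells, and the assay was TT-seq, which captures the RNA made during a short pulse of the uridine analogue 4-thiouridine (4sU), here 500 nM for 5 min. Both H3f3a and H3f3b encode H3.3, which gives a diploid cell 4 alleles. Dual-targeted lines (3) carried mutant alleles of both genes, 3 in each line. Of them 2 were A/A at H3f3a with WT/A at H3f3b and are called the paired clones, and 1 was WT/A at H3f3a with A/A at H3f3b and is called the lone dual-targeted line. Single-targeted lines (2) carried 2 mutant alleles, 1 line being A/A at H3f3a with WT/WT at H3f3b and the other WT/WT at H3f3a with A/A at H3f3b. Wildtype cells with no mutant allele gave 3 libraries from biological replicates. Each of the 5 mutant lines gave 1 library, and any spread in such a group lies between separately derived lines. The labels name media with LIF and with LIF plus a pair of inhibitors, without saying which was used here.

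Mouse embryonic stem cells can gain whole chromosomes in long culture, and chromosome 8 is among those most often gained. A cell with an extra copy of a chromosome generally makes more RNA from genes all along it, although single genes can be buffered by feedback or by their own regulation. A clone grown from 1 cell fixes the chromosome content of that cell, while a bulk culture can hold a mixture.

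RNA in proportion to gene copies would put a gene with 2 copies against 3 at a log2 ratio of -0.58, which is given as a scale only. DNA copy number was not analysed here. An extra chromosome in the wildtype libraries and a missing one in the mutant lines cannot be told apart from ratios between them, and mutation and derivation of the lines cannot be told apart either. In bulk RNA, fewer cells making a transcript and less of it per cell cannot be told apart.

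Across the libraries, the embryonic stem cell identity on the labels was matched by 10 of 10 marker genes with a row in all 4 tables. Their mean normalized counts, rebuilt from the tables as described next, summed to 21696 in dual-targeted lines, 17936 in single-targeted lines and 17718 in wildtype cells. Of 6 fibroblast or feeder markers, 2 had rows, summing to 42.9, 57.9 and 35.2 counts in dual-targeted, single-targeted and wildtype libraries, while Col1a1, Col1a2, Col3a1 and Dcn had none. Neural markers (4 of 4 measured) summed to 564.5 counts in dual-targeted, 278.1 in single-targeted and 369.8 in wildtype libraries. Primitive endoderm markers (2 of 5 in all 4 tables, Sox17 in none) summed to 28.1 in dual-targeted, 42.7 in single-targeted and 27.6 in wildtype libraries. Of 4 trophectoderm markers 1 was in all 4 tables, with 38.8 counts in dual-targeted, 28.7 in single-targeted and 33.6 in wildtype libraries, and of 4 markers of 2-cell-like cells 0 were. The part of other cell types in the results was not tested. Values per library were not analysed here, so the depth of each library is unknown.

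Values come in 2 forms. The first is the log2 fold change ± SE of the authors' deposited tables, which are shrunken towards 0 by an amount that differs between tables. The second is the log2 ratio of group means of normalized counts, rebuilt by subtraction from the mean counts in those tables, which is not shrunken and carries no error. In the rebuilt means the wildtype level serves all mutant groups, so the mutant groups share their wildtype libraries and their likeness to each other is not read as a result.

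Chromosome 8 lay below wildtype in every mutant group. Over the 595 genes of the chromosome with a mean count of 50 or more, the median rebuilt log2 ratio to wildtype was -0.43 in the 3 dual-targeted lines, -0.49 in the 2 single-targeted lines, -0.42 in the paired clones and -0.45 in the lone dual-targeted line. The 18 other chromosomes left when chromosome 14 and the Y are set aside had medians between -0.06 and 0.06 in dual-targeted lines and between -0.05 and 0.08 in single-targeted lines. Chromosome 14 stood at -0.69 in the clones, at -0.22 in single-targeted lines and at -0.03 in the lone dual-targeted line.

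**Figure D1:**
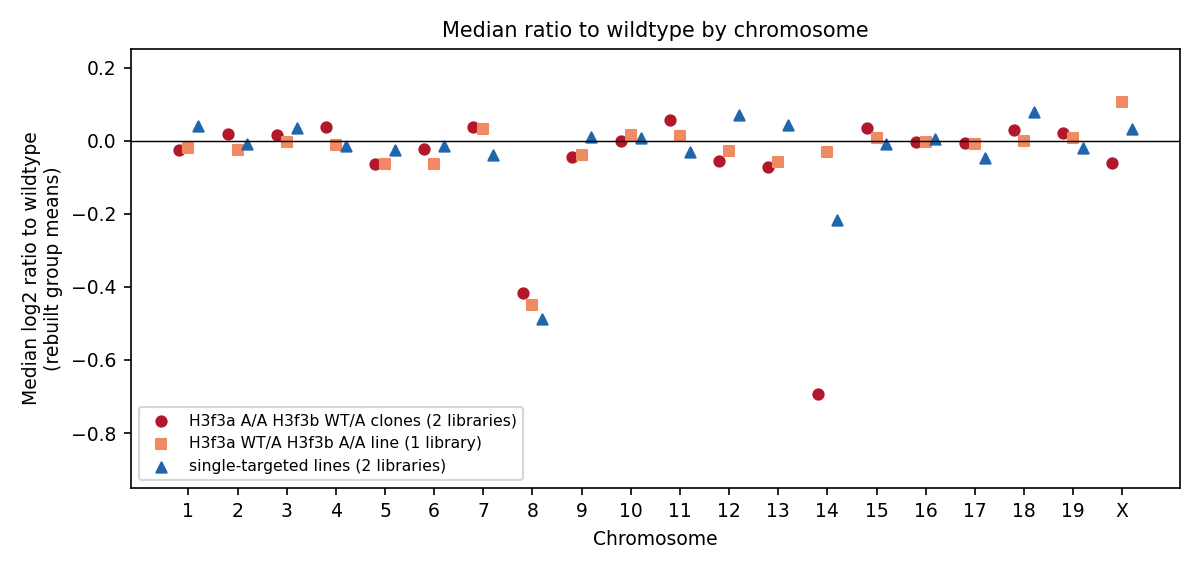
Median log2 ratio to wildtype of rebuilt group means (vertical axis) for each chromosome (horizontal axis), in the paired clones (circles), the lone dual-targeted line (squares) and the single-targeted lines (triangles). Chromosome 8 lies at -0.42, -0.45 and -0.49 in these groups, and chromosome 14 at -0.69, -0.03 and -0.22.

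The shift was present all along the chromosome, though its size varied between stretches. In each of the 13 bins of 10 Mb the median gene was below wildtype. Bin medians of the rebuilt log2 ratio ran from -0.68 to -0.27 in dual-targeted lines and from -0.57 to -0.34 in single-targeted lines. The rank correlation of ratio with start position over the 595 genes, which share their libraries, was 0.04 in dual-targeted lines and -0.07 in single-targeted lines. It reads a steady trend along the chromosome and not evenness. The width of the distribution was close to that of other genes. The interquartile range of the log2 ratios was 0.617 on chromosome 8 against 0.611 for 9987 genes of other chromosomes in dual-targeted lines, and 0.397 against 0.403 in single-targeted lines.

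**Figure D2:**
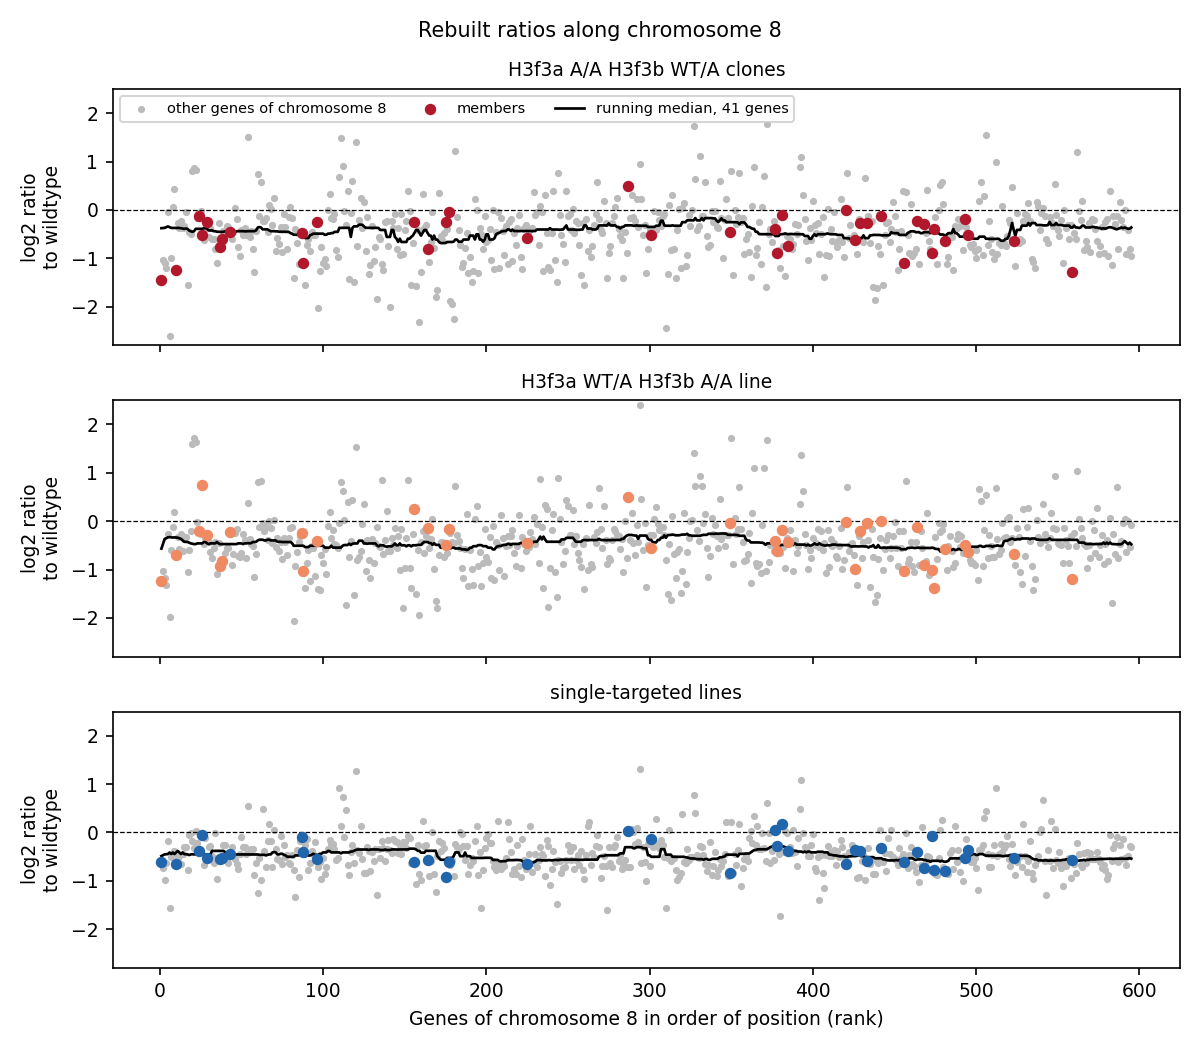
Rebuilt log2 ratio to wildtype (vertical axis) of 595 genes of chromosome 8 in order of position (horizontal axis, rank), with members in colour, other genes in grey and a running median over 41 genes in black. In the clones, the lone dual-targeted line and the single-targeted lines the running median stays below 0 along the whole chromosome, and members scatter on both sides of it.

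By rebuilt ratio the median member lay near the median of the chromosome. The median rebuilt log2 ratio of the 40 members in all 4 tables was -0.43 in dual-targeted lines, -0.53 in single-targeted lines, -0.47 in the clones and -0.47 in the lone dual-targeted line. In the authors' deposited table of dual-targeted lines against wildtype, 38 of 41 measured members had a fold change below 0, where 49.3% of all genes did, and the median was -0.32 against -0.27 for measured genes of chromosome 8 and 0.01 for all genes. In single-targeted lines 38 of 42 were below 0 in the authors' deposited table, where 48.7% of all genes were. The members' median there was -0.28 against -0.13 for chromosome 8 and 0.00 for all genes. However, 40 of the 42 members averaged at least 50 counts, against 648 of 844 measured chromosome 8 genes. Under that filter the single-targeted medians were -0.28 for members and -0.21 for chromosome 8. Under a filter at 200 counts they were -0.28 and -0.27. In the clones 38 of 41 were below 0 in the authors' deposited table, where 49.6% of all genes were. The members' median there was -0.34 against -0.26 for chromosome 8 and 0.00 for all genes. Under the filter at 200 counts, members and chromosome 8 stood at -0.35 and -0.29 in the clones. In dual-targeted lines they stood at -0.30 and -0.32 under it. The unfiltered gaps between members and chromosome 8 are therefore not read as a trait of the members.

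Fewer members passed the threshold than lay below 0. A gene is called here where the authors' DESeq2 tables give an adjusted p under 0.05. Against wildtype, 16 members were called lower in dual-targeted lines, where 10.1% of all genes were, and 0 higher, where 10.8% were. In single-targeted lines 3 were called lower, where 1.47% of all genes were, and 0 higher, where 1.49% were. In the clones 16 were called lower, where 10.3% of all genes were, and 0 higher, where 9.05% were. At an unadjusted p under 0.05 the members higher in DESeq2 numbered 1 in dual-targeted lines and 1 in the clones, Hmox1 in both, and 0 in single-targeted lines. Those lower at that unadjusted p numbered 18 in dual-targeted lines, 26 in single-targeted lines and 19 in the clones. The share of all genes at that unadjusted p was not computed. Since these comparisons chose the list, nothing is read from the counts. Chromosome 8 held 5.17% of the genes measured in dual-targeted lines and 16% of those called lower, and in single-targeted lines 5.19% of the genes measured and 38.9% of those called lower.

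**Figure D3:**
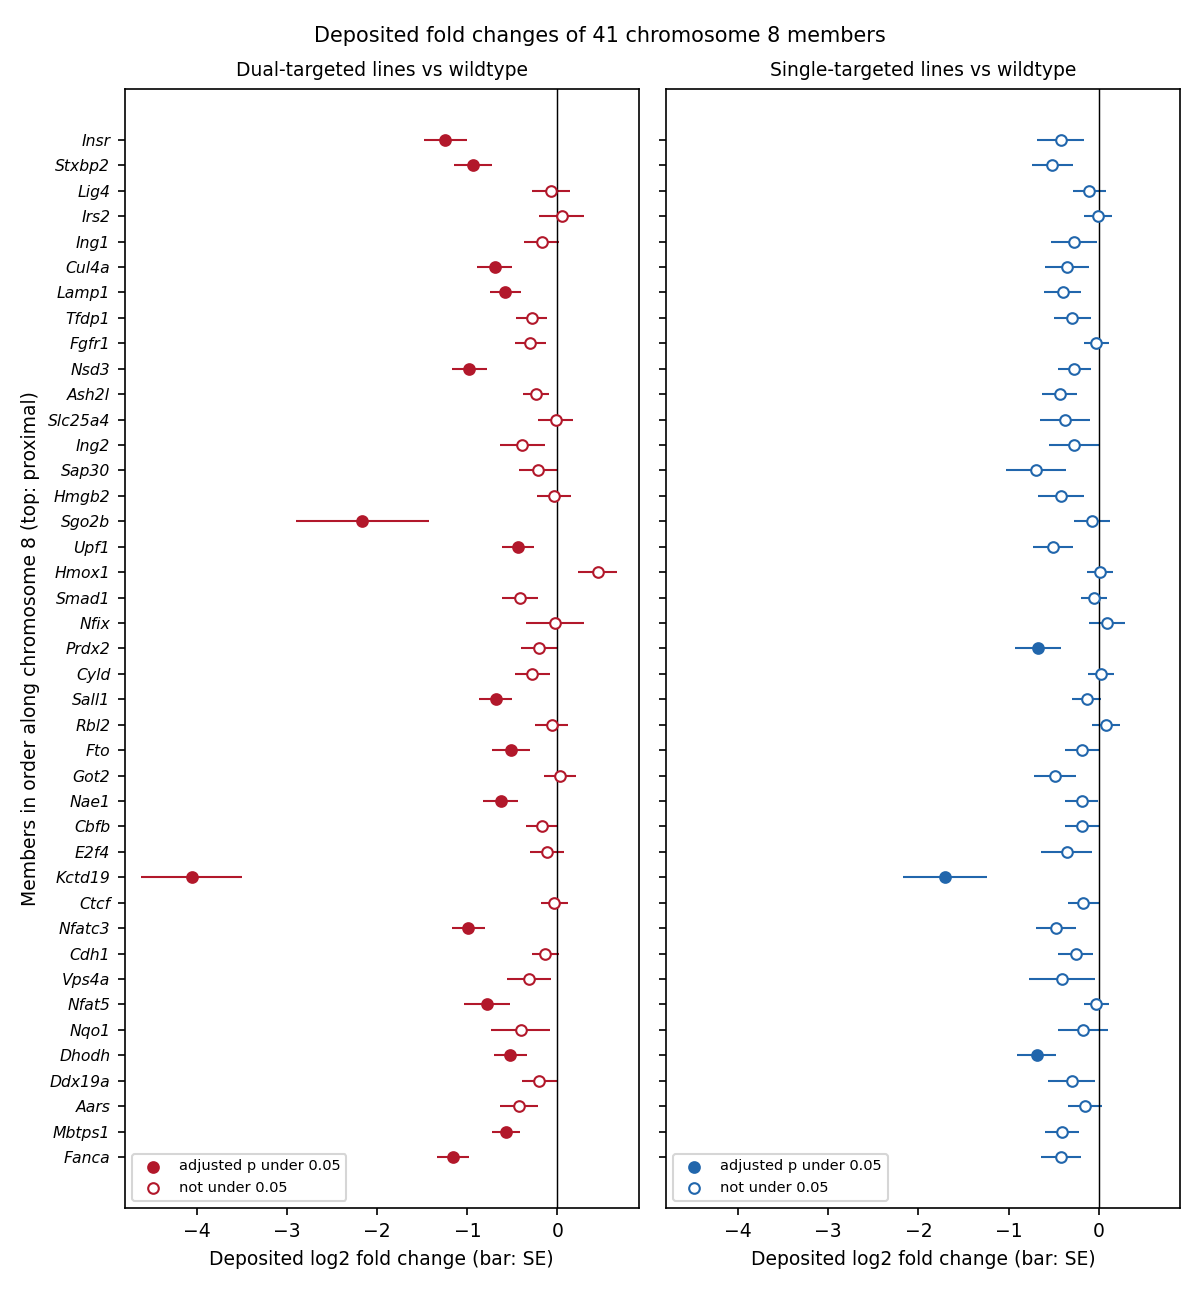
Log2 fold change with its SE (horizontal axis) in the authors' deposited tables for 41 members in order along chromosome 8 (vertical axis), dual-targeted lines against wildtype on the left and single-targeted lines against wildtype on the right. Filled points have an adjusted p under 0.05, 16 on the left and 3 on the right, and 38 members lie below 0 in the left panel.

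For 3 members the region before the start site is shown, so that the lowest, a middle and the highest member with an entry in the RefSeq promoter table (build GRCm38.p6) can be set side by side. They are Sgo2b (chr8:63952249-63952420, minus strand), Fto (chr8:91313275-91313524, plus strand) and Irs2 (chr8:11008930-11009179, minus strand). Kctd19 and Hmox1 have no entry. Bases inside the GENCODE span of the gene are left out. Capitals mark matches to CCAAT or GGGCGG on either strand, and TATAAA was searched too.
Sgo2b: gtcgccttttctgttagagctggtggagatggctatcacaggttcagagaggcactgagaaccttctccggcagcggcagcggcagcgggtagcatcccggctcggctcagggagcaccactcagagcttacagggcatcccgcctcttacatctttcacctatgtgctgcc
Fto: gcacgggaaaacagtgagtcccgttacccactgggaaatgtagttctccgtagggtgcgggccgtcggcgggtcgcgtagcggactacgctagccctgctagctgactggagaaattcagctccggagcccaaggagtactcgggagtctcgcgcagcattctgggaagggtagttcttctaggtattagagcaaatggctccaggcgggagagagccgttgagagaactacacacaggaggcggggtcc
Irs2: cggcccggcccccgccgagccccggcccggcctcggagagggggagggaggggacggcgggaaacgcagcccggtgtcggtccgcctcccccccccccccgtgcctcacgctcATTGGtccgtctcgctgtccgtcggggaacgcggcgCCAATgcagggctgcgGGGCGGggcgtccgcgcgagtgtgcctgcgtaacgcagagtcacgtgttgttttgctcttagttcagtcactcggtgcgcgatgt

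The Irs2 stretch holds 34 CpG dinucleotides, 2 CCAAT and 1 GGGCGG, the Fto stretch 18 CpG and none of the motifs, and the shorter Sgo2b stretch 8 CpG and none of the motifs. Over the 250 bases before the start of 34 members with an entry, 58.8% held GGGCGG, 32.4% CCAAT and 5.88% TATAAA. Over the same window of 7767 measured protein-coding genes, one window each, the shares were 63.2%, 37.7% and 5.25%, and over all 32817 windows that RefSeq gives they were 32.7%, 33.8% and 12.4%. A match describes letters and not a bound factor.

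The pair of members with roles in meiosis and cohesion stood lowest. Kctd19, which acts in male meiosis in mice, had log2 fold changes of -4.06 ± 0.56 (SE) in dual-targeted lines, -1.71 ± 0.46 in single-targeted lines and -4.40 ± 0.69 in the clones in the authors' deposited tables. Its mean count was 37.9 over the dual-targeted and wildtype libraries and 51.7 over the single-targeted and wildtype libraries in the authors' deposited tables, and it was absent from the table of dual-targeted against single-targeted lines. Kctd19 (chromosome 8, 105382807 to 105413502, GRCm38) overlaps Plekhg4 on the other strand, and whether strand was used when reads were counted is not given.

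Sgo2b, a paralogue of the cohesin protector Sgo2a of chromosome 1, had rebuilt mean counts of 41.3 in dual-targeted lines, 54.9 in single-targeted lines and 253.6 in wildtype cells. Within the dual-targeted group it stood at 21.8 in the clones and at 80.4 in the lone dual-targeted line. Every mutant group lay far below wildtype, at rebuilt log2 ratios of -2.62 in dual-targeted and -2.21 in single-targeted lines. The deposited fold changes gave another picture, with -2.17 ± 0.74 (SE) in dual-targeted lines but -0.07 ± 0.20 in single-targeted lines in the authors' deposited tables. For Sgo2b in single-targeted lines a deposited value near 0 thus stood beside a large rebuilt ratio. Sgo2a on chromosome 1 stood at -0.36 ± 0.18 in dual-targeted and -0.04 ± 0.14 in single-targeted lines in the authors' deposited tables, and reads shared by the paralogues could be split between them.

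Among receptors and signalling genes, the insulin receptor stood apart from its substrate. Insr (chromosome 8, 3122061 to 3279617), the insulin receptor, had rebuilt mean counts of 265.6 in dual-targeted lines (252.4 in the clones and 292 in the lone dual-targeted line), 446.7 in single-targeted lines and 685.9 in wildtype cells. Its fold change was -1.24 ± 0.24 (SE) in dual-targeted and -0.42 ± 0.26 in single-targeted lines in the authors' deposited tables, which puts it below the chromosome median in the dual-targeted group. Irs2, an adaptor that insulin and IGF1 receptors phosphorylate, had rebuilt mean counts of 273.2 in dual-targeted, 256.9 in single-targeted and 266.7 in wildtype libraries. The near-equal dual-targeted mean of Irs2 joins 186.1 in the clones to 447.3 in the lone dual-targeted line, so these means lay on both sides of wildtype. Its fold changes were 0.05 ± 0.24 in dual-targeted, -0.01 ± 0.16 in single-targeted and -0.33 ± 0.26 in clone libraries in the authors' deposited tables.

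Fgfr1, a receptor for fibroblast growth factors, and Smad1, which carries BMP signals to the nucleus, were near wildtype in single-targeted lines. The authors' deposited tables gave Fgfr1 -0.30 ± 0.17 (SE) in dual-targeted and -0.03 ± 0.14 in single-targeted lines, and Smad1 -0.42 ± 0.20 in dual-targeted and -0.05 ± 0.14 in single-targeted lines. The rebuilt ratios of these genes in single-targeted lines, -0.09 for Fgfr1 and -0.14 for Smad1, were also above the chromosome median of -0.49. Nrp1, a semaphorin and VEGF co-receptor, had no row in any table.

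All 7 chromatin members had fold changes below 0 in dual-targeted and in single-targeted lines. The median rebuilt log2 ratio of the role was -0.31 in dual-targeted and -0.56 in single-targeted lines. Sap30, a subunit of the Sin3 histone deacetylase complex, had rebuilt mean counts of 147.4 in dual-targeted, 97.2 in single-targeted and 184.1 in wildtype libraries. Hmgb2, a high mobility group protein that bends DNA, had 2763 in dual-targeted, 1921 in single-targeted and 2931 in wildtype libraries. Both genes thus had their lowest mean in single-targeted lines. Nsd3, a histone H3 lysine methyltransferase, ran the other way, with 791.2 in dual-targeted, 1259 in single-targeted and 1675 in wildtype libraries.

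Ing2, which reads trimethylated H3 lysine 4 for the Sin3 complex, was the member nearest the median of all members. It had rebuilt mean counts of 158.3 in dual-targeted lines (132.2 in the clones and 210.6 in the lone dual-targeted line), 155.8 in single-targeted lines and 231.2 in wildtype cells. Its deposited fold changes were -0.39 ± 0.25 (SE) in dual-targeted, -0.28 ± 0.28 in single-targeted and -0.61 ± 0.28 in clone libraries in the authors' deposited tables. Its relative Ing1 stood at -0.18 ± 0.19 in dual-targeted and -0.27 ± 0.25 in single-targeted lines in the authors' deposited tables. Ash2l, a core subunit of the complexes that methylate H3 lysine 4, stood at -0.24 ± 0.15 in dual-targeted and -0.43 ± 0.19 in single-targeted lines in the authors' deposited tables. Ctcf, the insulator protein that anchors chromatin loops, was at 1269 in dual-targeted, 1069 in single-targeted and 1342 in wildtype libraries by rebuilt mean count, close to wildtype in the dual-targeted lines.

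Transcription factors had fold changes from -0.99 to -0.03 in dual-targeted and from -0.47 to 0.09 in single-targeted lines in the authors' deposited tables. Nfatc3, a calcium-responsive factor, had rebuilt mean counts of 711.8 in dual-targeted, 984.2 in single-targeted and 1508 in wildtype libraries. Nfat5, the factor of the response to high salt, had 1434 in dual-targeted, 2593 in single-targeted and 2740 in wildtype libraries. Nfat5 was thus near wildtype in single-targeted lines but well below it in dual-targeted lines. Sall1, a zinc finger repressor expressed in embryonic stem cells, followed the same order, with 947.9 in dual-targeted, 1352 in single-targeted and 1641 in wildtype libraries.

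Of the genes of the E2F and pocket protein complexes, Rbl2 lay near wildtype. Rbl2 (p130), the pocket protein that holds E2f4 in repressive complexes, had rebuilt mean counts of 292.2 in dual-targeted lines (298.3 in the clones and 279.9 in the lone dual-targeted line), 359.8 in single-targeted lines and 319.4 in wildtype cells. The authors' deposited tables gave Rbl2 -0.06 ± 0.18 (SE) in dual-targeted, 0.08 ± 0.15 in single-targeted and -0.03 ± 0.21 in clone libraries. E2f4 stood at -0.12 ± 0.19 in dual-targeted and -0.35 ± 0.28 in single-targeted lines in the authors' deposited tables, and its dimer partner Tfdp1 at -0.29 ± 0.17 in dual-targeted and -0.29 ± 0.20 in single-targeted lines. Rbl2 overlaps Aktip on the other strand.

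Cbfb, the partner subunit of the RUNX factors, stood at -0.17 ± 0.17 (SE) in dual-targeted and -0.18 ± 0.19 in single-targeted lines in the authors' deposited tables. Nfix, a nuclear factor I protein of neural and muscle development, was barely measured, with rebuilt mean counts of 14.1 in dual-targeted (17.6 in the clones and 7.3 in the lone dual-targeted line), 28.9 in single-targeted and 15.8 in wildtype libraries. Its place among the 4 highest members rests on those low counts, and its fold changes were -0.03 ± 0.32 in dual-targeted, 0.09 ± 0.20 in single-targeted and 0.07 ± 0.34 in clone libraries in the authors' deposited tables. Irf2, an interferon regulatory factor, had no row.

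Among DNA repair and ubiquitin genes, Fanca was the lowest. Fanca (chromosome 8, 123268300 to 123318576), a subunit of the Fanconi anaemia core complex that repairs DNA crosslinks, had rebuilt mean counts of 540.3 in dual-targeted lines, 867.9 in single-targeted lines and 1286 in wildtype cells. Its mean was 527.9 in the clones and 565 in the lone dual-targeted line. The authors' deposited tables gave Fanca -1.16 ± 0.18 (SE) in dual-targeted, -0.42 ± 0.22 in single-targeted and -1.15 ± 0.21 in clone libraries. Fanca overlaps Zfp276 on the other strand.

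Cul4a, the scaffold of CRL4 ubiquitin ligases, and Nae1, which activates NEDD8 for cullins, were called lower in dual-targeted lines, Cul4a at -0.70 ± 0.20 (SE) and Nae1 at -0.63 ± 0.19 in the authors' deposited table. In single-targeted lines Cul4a stood at -0.35 ± 0.24 and Nae1 at -0.19 ± 0.18 in the authors' deposited table. Lig4, the ligase of non-homologous end joining, stood at -0.07 ± 0.21 in dual-targeted and -0.10 ± 0.18 in single-targeted lines in the authors' deposited tables. Its rebuilt log2 ratios were -0.15 in dual-targeted and -0.38 in single-targeted lines, so by that measure it lay near wildtype in dual-targeted lines only. Cyld, a deubiquitinase that restrains NF-kappaB signalling, had rebuilt mean counts of 266.8 in dual-targeted, 361.2 in single-targeted and 350.6 in wildtype libraries.

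The metabolic and redox members held the one gene at or above wildtype in every group. Hmox1 (chromosome 8, 75093621 to 75100589), the haem oxygenase induced by oxidative stress, had rebuilt mean counts of 328.5 in dual-targeted lines (328.9 in the clones and 327.8 in the lone dual-targeted line), 237.6 in single-targeted lines and 232.8 in wildtype cells. The rebuilt means of both dual-targeted genotypes were above wildtype, while the single-targeted mean lay near it. They are set against the same wildtype mean, so their likeness is not read as a result. The authors' deposited tables gave Hmox1 0.44 ± 0.21 (SE) in dual-targeted, 0.02 ± 0.15 in single-targeted and 0.43 ± 0.24 in clone libraries, none of them called.

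By rebuilt mean, the other metabolic genes did not all keep the same order of groups. None of them was called between dual-targeted and single-targeted lines. Got2, the mitochondrial aspartate aminotransferase, had rebuilt mean counts of 704.1 in dual-targeted, 449.2 in single-targeted and 704.6 in wildtype libraries, and Slc25a4, the mitochondrial ADP/ATP carrier, had 668.5 in dual-targeted, 455.6 in single-targeted and 698.5 in wildtype libraries. Both genes were below wildtype in single-targeted lines by rebuilt mean, and neither was called there. In dual-targeted lines Got2 was at wildtype level, while the Slc25a4 mean joins 584.3 in the clones to 836.8 in the lone dual-targeted line, on either side of wildtype. Prdx2, a peroxiredoxin that removes peroxides, had 310.8 in dual-targeted, 214.8 in single-targeted and 382.2 in wildtype libraries, and overlaps Junb and Rnaseh2a on the other strand. Dhodh, the mitochondrial enzyme of pyrimidine synthesis, was called lower in every comparison with wildtype, at -0.52 ± 0.19 (SE) in dual-targeted, -0.69 ± 0.22 in single-targeted and -0.51 ± 0.22 in clone libraries in the authors' deposited tables.

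Fto, an RNA demethylase and the longest member at 355 kb, stood at -0.51 ± 0.21 (SE) in dual-targeted and -0.18 ± 0.19 in single-targeted lines in the authors' deposited tables. Nqo1, a quinone reductase of the NRF2 response, had low rebuilt mean counts of 60 in dual-targeted, 54.9 in single-targeted and 94.4 in wildtype libraries. Galnt2, which starts O-linked glycosylation, had a row in the single-targeted table alone, with a mean count of 10.0 and a fold change of -0.01 ± 0.17 in the authors' deposited table.

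The RNA and translation members lay near the chromosome's own shift. Upf1, the helicase of nonsense-mediated decay, stood at -0.44 ± 0.18 (SE) in dual-targeted and -0.50 ± 0.22 in single-targeted lines in the authors' deposited tables. Aars, the alanyl-tRNA synthetase, stood at -0.43 ± 0.21 in dual-targeted and -0.15 ± 0.19 in single-targeted lines in the authors' deposited tables, and Ddx19a, an RNA helicase of mRNA export, at -0.20 ± 0.19 in dual-targeted and -0.30 ± 0.26 in single-targeted lines. Upf1 overlaps Cers1 on the other strand.

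The membrane traffic, adhesion and secretion members were below 0 in all comparisons with wildtype. Stxbp2, which binds syntaxins in exocytosis, had rebuilt mean counts of 284.5 in dual-targeted lines (246.8 in the clones and 359.9 in the lone dual-targeted line), 373.1 in single-targeted lines and 588.1 in wildtype cells. Mbtps1, the site 1 protease that cuts SREBP in the Golgi, had 2185 in dual-targeted, 2379 in single-targeted and 3440 in wildtype libraries. Lamp1, a lysosomal membrane protein, had 820.5 in dual-targeted, 902.2 in single-targeted and 1310 in wildtype libraries. Rebuilt means of Mbtps1 and Lamp1 were below wildtype in both mutant groups. That of Stxbp2 was lower in the clones than in single-targeted lines, but in the lone dual-targeted line it was close to the single-targeted mean. Between dual-targeted and single-targeted lines Stxbp2 stood at -0.19 ± 0.22 (SE) in the authors' deposited table, and was not called.

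Vps4a, the ATPase that recycles ESCRT complexes, stood at -0.32 ± 0.24 (SE) in dual-targeted and -0.41 ± 0.37 in single-targeted lines in the authors' deposited tables. Cdh1, the E-cadherin that holds embryonic stem cell colonies together, stood at -0.13 ± 0.15 in dual-targeted and -0.26 ± 0.19 in single-targeted lines in the authors' deposited tables. By rebuilt mean count Cdh1 had 1824 in dual-targeted, 1563 in single-targeted and 2082 in wildtype libraries.

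Some members lay close to the chromosome's own shift and others stood away from it in every mutant group. Of the 40 members in all 4 tables, 21 lay within 0.25 of the chromosome 8 median in dual-targeted lines, 27 in single-targeted lines, 22 in the clones and 15 in the lone dual-targeted line. That share over all genes of the chromosome was not computed, so the counts are not read as a trait of the members. At or above wildtype were Irs2 and Hmox1 in dual-targeted lines, and Nfix, Rbl2, Cyld and Hmox1 in single-targeted lines. In the clones these were Nfix, Hmox1 and Got2, and in the lone dual-targeted line Irs2, Ctcf, Hmox1 and Slc25a4. Hmox1 was the one member on all 4 of these lists. Below wildtype were 95% of the 40 members and 84.4% of the 595 genes of the chromosome in dual-targeted lines. In single-targeted lines the shares were 90% and 90.3%. Below a log2 ratio of -1 were Insr, Nsd3, Nfatc3, Fanca, Stxbp2 and Sgo2b in dual-targeted lines, and Sgo2b in single-targeted lines.

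The comparison of dual-targeted with single-targeted lines contains no wildtype library and did not choose the list. There the members lay on both sides of 0. Of 40 members, 19 were below 0 in the authors' deposited table, where 50.4% of all genes were, and their median was 0.02 against 0.00 for all genes and for chromosome 8. Fanca alone was called lower (1 of 39 members with an adjusted p), where 2.69% of all genes were, and 0 members were called higher by DESeq2, where 4.37% were. At an unadjusted p under 0.05 there were 6 lower and 5 higher. The share of all genes at that threshold was not computed, so nothing is read from these counts.

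Fanca fell by 0.56 ± 0.18 on the log2 scale in dual-targeted against single-targeted lines (DESeq2 adjusted p = 0.0141) in the authors' deposited table. Of the other members, Got2 had the largest positive value, 0.53 ± 0.25 (SE, DESeq2 adjusted p = 0.0523), and Nfat5 the largest negative, -0.62 ± 0.31 (DESeq2 adjusted p = 0.0568), in the authors' deposited table. Nsd3 (-0.50 ± 0.23, DESeq2 adjusted p = 0.0597) and Insr (-0.52 ± 0.28, DESeq2 adjusted p = 0.0807) also missed the threshold in the authors' deposited table. Whether these genes differ between the mutant groups is therefore not settled by these libraries.

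The members' difference between dual-targeted and single-targeted lines went with gene length. Across the 38 members with a mean count of 50 or more, which share their libraries, the rank correlation of the rebuilt log2 ratio with gene length was -0.699. It was -0.339 across the 595 genes of chromosome 8 and -0.336 across 9987 genes of other chromosomes. The 19 shorter members (4.09 to 23.8 kb) had a median log2 ratio of 0.23 between dual-targeted and single-targeted lines, and the 19 longer ones (24.4 to 355 kb) one of -0.27. Against wildtype the shorter members had medians of -0.32 in dual-targeted and -0.60 in single-targeted lines, and the longer ones -0.53 in dual-targeted and -0.41 in single-targeted lines. The roles differ in length, so role and length are not separated in the values above.

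The trend with length was also present on other chromosomes, and chromosome 8 lay below them at every length. Of 5 length classes, the difference between the chromosome 8 median and that of other chromosomes ran from -0.51 to -0.36 in dual-targeted lines and from -0.53 to -0.42 in single-targeted lines. In the longest class, 65.1 kb and over, the median log2 ratio in dual-targeted lines was -0.66 on chromosome 8 against -0.19 elsewhere, and in single-targeted lines -0.36 against 0.06. The difference from other chromosomes was thus of like size in short and long genes in both mutant groups.

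**Figure D4:**
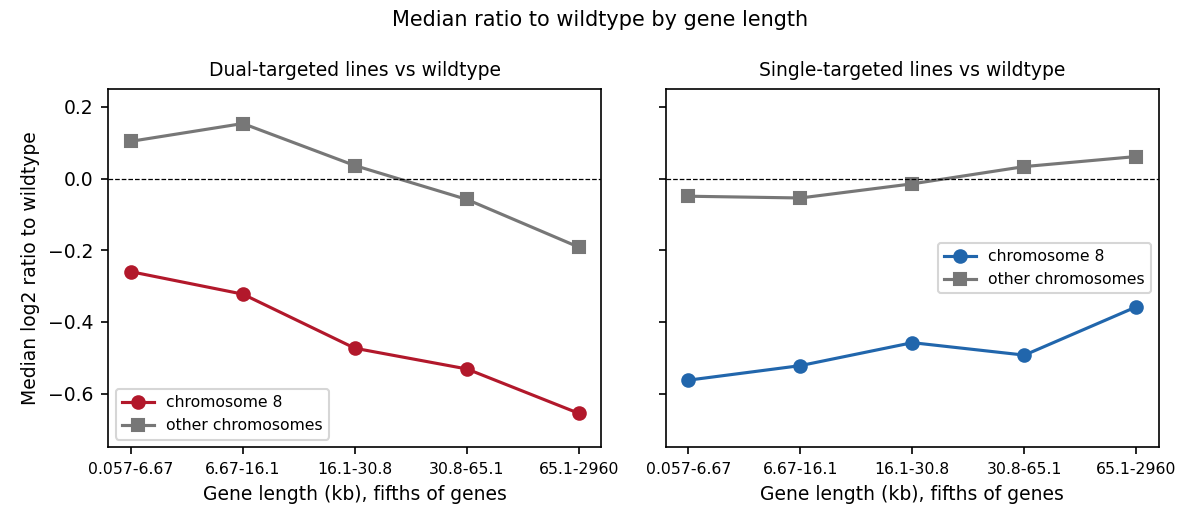
Median rebuilt log2 ratio to wildtype (vertical axis) by gene length in 5 classes (horizontal axis, kb), for chromosome 8 (coloured circles) and other chromosomes (grey squares), dual-targeted lines on the left and single-targeted lines on the right. Chromosome 8 lies 0.36 to 0.51 below other chromosomes in each class on the left and 0.42 to 0.53 below on the right.

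Genes of chromosome 8 that are not members show the ends of its range. The 4 lowest of 517 protein-coding genes were C330021F23Rik, Cers1 (a ceramide synthase), Primpol (a primase-polymerase that restarts stalled forks) and Tenm3 (a teneurin of neuronal adhesion). Primpol had rebuilt mean counts of 160.5 in dual-targeted, 400.9 in single-targeted and 725.9 in wildtype libraries. The 4 highest were Nrg1 (a ligand of ERBB receptors), Zfp423 (a zinc finger factor), Mt2 (a metallothionein) and Palm3. Mt2 had 264.1 in dual-targeted, 245.2 in single-targeted and 116 in wildtype libraries. Nrg1, Mt2 and Cdyl2, a chromodomain protein, were the 3 genes of the chromosome called higher in both comparisons, while 54 were called lower in both. Over all genes 157 were called lower in both, and the number called higher in both was not computed.

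Genes that work with the members but lie on other chromosomes were read beside them. Of 74 partner genes, chosen by complex or pathway, 72 were measured, and their median fold change was 0.02 in dual-targeted and 0.02 in single-targeted lines in the authors' deposited tables. That median joins lists on both sides of 0 in dual-targeted lines, such as -0.53 for the partners of Mbtps1 and -0.24 for those of E2f4, Tfdp1 and Rbl2, and 0.39 for those of Cul4a and Nae1. In dual-targeted lines 7 were called lower, where 10.1% of all genes were, and 7 higher, where 10.8% were, in the authors' deposited table, which is near the share of all genes. In single-targeted lines E2f1, an activator of cell cycle genes, was called lower in the authors' deposited table. Those called lower in dual-targeted lines were Tfdp2 and Rbl1 (E2F partners), Igf1r and Frs2 (growth factor signalling), and Mbtps2, Srebf1 and Srebf2 (SREBP processing). Among those called higher were Dpy30, Rbbp7, Ube2m, Grb2, Runx1 and Xrcc4.

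Of 4 SREBP pathway partners of Mbtps1, 3 were called lower in dual-targeted lines, with Srebf1 at -0.72 ± 0.22 (SE) and Srebf2 at -0.51 ± 0.17 in the authors' deposited table. Igf1r, the IGF1 receptor, stood at -1.16 ± 0.23 in dual-targeted and -0.08 ± 0.14 in single-targeted lines in the authors' deposited tables. Between dual-targeted and single-targeted lines 3 of 73 partners were called lower, where 2.69% of all genes were, in the authors' deposited table. They were Igf1r (-0.91 ± 0.31, DESeq2 adjusted p = 0.0104), Frs2 (-0.58 ± 0.20, DESeq2 adjusted p = 0.0162) and Smg1 (-0.44 ± 0.18, DESeq2 adjusted p = 0.0431).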

How the data were processed

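TT-seq libraries (8) of E14 cells were read through 4 deposited tables of the authors' own comparisons. Builds GRCm38.p6 and mm10, and the tools DESeq2, featureCounts, STAR, deepTools and SAMtools, are listed without versions or roles, per the submitters' processing notes. Each table, per the file headers, holds the authors' mean of normalized counts (a signal value over the libraries compared), log2 fold changes with standard errors, p-values and adjusted p-values. Each was normalized separately. The sources used here do not say whether counting used strand. The depth per library is unknown. Genes without an adjusted p were kept as such. The deposited log2 fold changes are read as shrunken, since for 100% of called genes they are smaller than the p-value implies.

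Group means were rebuilt from the deposited mean counts by subtraction, in 15571 genes in all 4 tables. Separately normalized tables were joined by factors of 0.988, 1.05 and 0.957, which put the median of 9987 genes off chromosomes 8, 14, Y and the mitochondrial genome at the wildtype level, and 2 genes came out below 0. The subtraction was also run on simulated data, with the same shifts in every mutant library. Only medians over sets of genes were checked in that run, so single genes and differences between mutant groups were not tested. Positions and lengths came from GENCODE mouse release 21 (GRCm38), which placed 98.4% of symbols, and promoters from RefSeq (GRCm38.p6), with an entry for 34 members and none for 10.

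The members, partner and marker lists and tests were chosen with earlier results of these data known. Full values were given for Kctd19 and Sgo2b, the 4 lowest and 4 highest members by mean deposited fold change of dual-targeted and single-targeted lines against wildtype, the one nearest the median, and any called between dual-targeted and single-targeted lines. Of other genes of chromosome 8, the 4 lowest and 4 highest protein-coding genes by that mean, with a mean count of 50 or more, and those called higher in both were named. Other members were given in brief. For promoters, the member nearest the median with an entry outside the GENCODE gene span, with a mean count of 50 or more, was taken in place of Ing2, a choice made after its entry was seen. 1 partner on chromosome 8 was dropped, and 3 lie on chromosome 14. Values of 1 partner are not reported here. Thresholds, filters on mean count, centring, pseudocounts, a length correction and leaving out a line were tried. Tools were matplotlib 3.10.9, scipy 1.17.1, pandas 2.3.3 and numpy 2.4.6 under Python 3.11.15.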

Additional observations from a re-analysis of the deposited data

Results flagged for a closer look

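Fanca was the 1 member of 39 called between the mutant groups, where 2.69% of all genes were called lower, so the count is near that of all genes. At an adjusted p under 0.01 the count was 0. Its log2 fold change between dual-targeted and single-targeted lines was -0.56 ± 0.18 (SE, DESeq2 adjusted p = 0.0141) in the authors' deposited table. Against wildtype it stood at -1.16 ± 0.18 in dual-targeted and -0.42 ± 0.22 in single-targeted lines in the authors' deposited tables.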

How the results depend on the processing

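Over the alternatives tried, 47 of 55 values stayed on their side of the threshold or moved by less than the members' median standard error. Of these, the median of members between dual-targeted and single-targeted lines changed sign, from 0.02 as deposited to -0.06 among members with a mean count of 200 or more and to -0.01 with the length correction. The median fold change of members in single-targeted lines was -0.28 as deposited, -0.53 from rebuilt means with no pseudocount and -0.53 with a pseudocount of 5. At an adjusted p under 0.1, the members called lower were 10 in single-targeted lines and 4 between dual-targeted and single-targeted lines, and 1 member was higher in dual-targeted lines and 1 between dual-targeted and single-targeted lines. At an adjusted p under 0.01, 8 members were lower in the clones and 0 between dual-targeted and single-targeted lines. Shares of all genes at these other thresholds were not computed, so nothing about the members is read from these counts. Without the lone dual-targeted line, that is in the clones, the deposited dual-targeted median was -0.34 and 16 members were called lower. From rebuilt means the median was -0.47 in the clones and -0.47 in the lone dual-targeted line. The length correction and that line alone were chosen after seeing the data. No paired analysis was possible because the tables hold no values per library. Counting error cannot be given without depths, and deposited fold changes are not comparable in size between tables.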
